A study of Mus musculus with 6 samples.

Results

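Calb2, Pcdh21 and Scube1 are 3 genes that had been grouped as genes of olfactory bulb neurons with calretinin, and their signals were followed here in the prelimbic cortex (PL) of stressed mice. They are 3 of the 884 symbols that the selection tables of the study attach to 899 of the 25697 probes on the arrays. Each was read from the probe that those tables name for it, and 6 arrays were used. The tables hold genes whose group means differed by at least 1.2-fold on these same arrays, between CRST and CON in the first and between CRST+RS5 and CRST in the second. Calb2 and Pcdh21 stand in both tables and Scube1 in the first only. The levels and differences of the 3 genes are therefore a description of what was selected, and no test is given for them.

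All mice were male C57BL/6 mice aged 3 months. CON mice were not restrained. The CRST treatment was 14 days of restraint for 2 h each day, and CRST+RS5 mice went through it before 14 days with 5 min of restraint each day. PL tissue was taken on post-stress day 22, and each array carried RNA pooled from 6 to 7 animals, with 2 arrays per group. The spread between arrays is thus a spread between pools, and the animals within a pool cannot be told apart.

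Calb2 encodes calretinin, an EF-hand calcium-binding protein of periglomerular and granule cells in the olfactory bulb, and also of a class of GABAergic interneurons in the cortex. Pcdh21, now named Cdhr1, encodes a cadherin-related membrane protein known from mitral and tufted cells, the projection neurons of the bulb, and from photoreceptors. Scube1 encodes a secreted and cell-surface protein with CUB and EGF-like domains. In the bulb, axons of olfactory sensory neurons contact mitral and tufted cells in glomeruli, and periglomerular and granule cells inhibit that relay.

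In the mouse assembly GRCm38.p6, Calb2 lies at chr8:110142526-110168212, Pcdh21 at chr14:37077849-37098347 and Scube1 at chr15:83602583-83725051. Promoters of Pcdh21 and Scube1, and of Doc2g and Th, bulb genes with the same order of the 6 arrays as Calb2 (below), are printed from RefSeq. For Doc2g and Th that order includes arrays without detection, and genes outside the bulb lists had it too. The promoters used here held none matched to Calb2, so its own is not printed. Each printed promoter covers 250 bases before and 50 after the annotated start, 5′ to 3′ on the strand of the gene. The windows are chr14:37098298-37098597 (minus strand) for Pcdh21, chr19:4003135-4003434 (plus strand) for Doc2g, chr7:142899946-142900245 (minus strand) for Th and chr15:83724990-83725289 (minus strand) for Scube1. Capitals mark matches to the motifs named after the sequences.
Pcdh21: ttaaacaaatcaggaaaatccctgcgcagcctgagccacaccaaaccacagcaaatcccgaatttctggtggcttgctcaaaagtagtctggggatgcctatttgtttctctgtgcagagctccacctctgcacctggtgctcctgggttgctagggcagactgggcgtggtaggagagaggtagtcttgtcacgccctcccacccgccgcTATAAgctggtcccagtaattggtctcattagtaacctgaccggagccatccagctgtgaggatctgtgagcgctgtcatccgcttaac
Doc2g: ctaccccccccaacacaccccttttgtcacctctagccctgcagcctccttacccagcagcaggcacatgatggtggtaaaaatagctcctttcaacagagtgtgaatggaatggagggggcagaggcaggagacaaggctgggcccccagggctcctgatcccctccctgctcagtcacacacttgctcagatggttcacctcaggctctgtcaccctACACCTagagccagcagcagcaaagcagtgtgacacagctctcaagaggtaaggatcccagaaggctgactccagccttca
Th: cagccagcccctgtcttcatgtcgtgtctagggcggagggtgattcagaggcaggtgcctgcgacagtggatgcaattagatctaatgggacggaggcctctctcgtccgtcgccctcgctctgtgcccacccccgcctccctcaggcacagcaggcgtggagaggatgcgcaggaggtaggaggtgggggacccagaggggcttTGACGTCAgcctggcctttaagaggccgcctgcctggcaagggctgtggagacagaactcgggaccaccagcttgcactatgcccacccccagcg
Scube1: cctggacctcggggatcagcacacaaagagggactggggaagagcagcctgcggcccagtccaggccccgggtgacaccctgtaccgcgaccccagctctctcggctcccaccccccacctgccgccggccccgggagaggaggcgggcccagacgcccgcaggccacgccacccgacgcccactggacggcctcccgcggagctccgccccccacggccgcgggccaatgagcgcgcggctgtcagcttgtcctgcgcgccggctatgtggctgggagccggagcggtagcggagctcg

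Searched on both strands were AGAACA, part of the glucocorticoid receptor's site, AGGTGT, the core of the T-box site, TAATTA, a homeodomain core, and TGACG, the core of the cAMP response element. TATAA was added after the sequences had been read. The Pcdh21 promoter held TATAA from position -39, counted from the start, a motif in 24.9% of 32851 promoters of this length. The Doc2g promoter held ACACCT, which is AGGTGT on the other strand, at position -31, and 13.7% of promoters held that motif. The Th promoter held TGACGTCA, in which TGACG on both strands overlaps, from position -45, and TGACG was in 20.8% of promoters. None of these motifs was in the Scube1 window, and AGAACA (19% of promoters) and TAATTA (5.29%) were in none of the 4 windows. The Scube1 window was 75% GC with 32 CG pairs, against a median of 52.7% and 7 over all promoters, whereas Pcdh21 had 54% GC and 9 CG pairs, and Doc2g had no CG pair. A match is a run of letters and was not tested as a binding site.

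The number of probes with a detection p under 0.05, the chance of a signal at least as high from background alone, ran from 12645 to 13407 over the arrays. Levels are log2 signals after quantile normalization. The 3 members were detected on 6 of 6 arrays, and so were Fezf2, Tle4 and Tbr1, transcription regulators of deep cortical layers. Some arrays stood apart in lists of other cell types. On CRST+RS5 replicate 2, 18 of 18 named genes of the olfactory mucosa list were detected and each had its highest value, and their summed normalized signal, on the linear scale, was 35142 against 3317 to 3981 on the other arrays. On CRST replicate 2, 16 of 16 named myelin genes had their highest value, with a summed signal of 150123 against 68289 to 82826. On CRST replicate 1, 16 of 18 named meningeal genes had their lowest value, with a summed signal of 10374 against 14329 to 32357. Values of the members are therefore given with and without CRST+RS5 replicate 2 and CRST replicate 2. In CRST against CON they are also given without CRST replicate 1.

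The calretinin gene Calb2 was lowest in CRST and highest in CRST+RS5. Its log2 signal was 10.92 and 11.01 on the CON arrays, 10.38 and 10.69 on the CRST arrays, and 11.11 and 11.68 on the CRST+RS5 arrays. The 3 groups did not overlap: both CRST arrays lay below both CON arrays, which lay below both CRST+RS5 arrays. CON replicate 2 and CRST+RS5 replicate 1, neighbours in this order, were 0.10 apart, less than the distance of 0.57 between the CRST+RS5 arrays. Before normalization the signals were 1739 and 2239 in CON, 1208 and 2081 in CRST, and 2064 and 3124 in CRST+RS5. In these raw values the groups overlapped. After normalization, 14.3% of all probes tested had both CRST arrays below both CON arrays. Both CRST+RS5 arrays were above both CON arrays for 17.7%. The share with both patterns was not counted, and other named genes, such as Hpca and Cux2, had both.

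Pcdh21, the gene of the mitral and tufted cell cadherin, was likewise lowest in CRST. Its log2 signal was 9.27 and 9.14 in CON, 8.53 and 8.68 in CRST, and 9.04 and 10.03 in CRST+RS5. Both CRST arrays were below all other arrays. The CRST+RS5 arrays fell on either side of the CON arrays, with replicate 1 just below them and replicate 2 the highest of all. The distance between the CRST+RS5 arrays, 0.99, exceeded each difference between group means of this gene. The raw signals were 555 and 609 in CON, 334 and 493 in CRST, and 499 and 1021 in CRST+RS5, with CRST+RS5 replicate 2 again far above the rest.

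Scube1 was lowest in the mean of CRST and between it and CON in the mean of CRST+RS5. Its log2 signal was 9.35 and 9.15 in CON, 9.09 and 8.54 in CRST, and 9.23 and 8.79 in CRST+RS5. Both CRST arrays were below both CON arrays, by as little as 0.06 between the nearest arrays, while CRST+RS5 overlapped with both other groups. The replicate 2 array was the lower one in each group, and among arrays of the same number the order was CRST, CRST+RS5, CON for both numbers. The study prepared 2 independent sets of the groups, but that a replicate number marks a set is not stated. The raw signals were 584 and 612 in CON, 492 and 441 in CRST, and 569 and 442 in CRST+RS5.

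**Figure D1:**
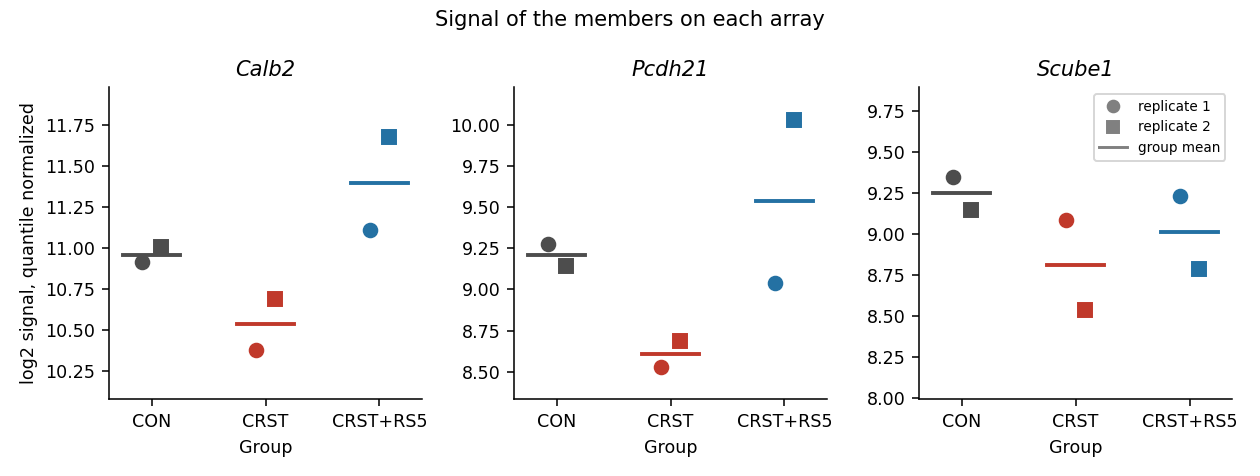
Normalized log2 signal (y axis, the same span in each panel) of Calb2, Pcdh21 and Scube1 on 6 arrays of PL tissue, by group. Circles are replicate 1, squares replicate 2 and lines the mean of 2 arrays. For each gene both CRST arrays lie below both CON arrays, and for Calb2 and Pcdh21 the highest point is CRST+RS5 replicate 2.

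In CRST against CON, 3 of 3 members were lower by at least 1.2-fold, where 0.864% of the 13083 probes tested were lower by that much, 0.78% were higher and 1.64% were past the fold either way. The rule had selected the members on this contrast. The log2 difference of means was -0.42 for Calb2 (standard error 0.17, 1.34-fold), -0.60 for Pcdh21 (standard error 0.26, 1.52-fold) and -0.44 for Scube1 (standard error 0.19, 1.35-fold), with 2 arrays per group. The pattern of both CRST arrays below both CON arrays, seen in 3 of 3 members, was met by 14.3% of probes. Across these probes limma found 0 at an adjusted p under 0.05 and 428 (3.27%) at an unadjusted p under 0.05. Without CRST replicate 2, the array high in myelin genes, Calb2 stood at -0.58 and Pcdh21 at -0.67, but Scube1 at only -0.16, short of 1.2-fold. Without CRST replicate 1, the values were -0.27, -0.52 and -0.71, so that Calb2 was just past 0.26, the log2 of 1.2.

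In CRST+RS5 against CRST, 2 of 3 members were higher by at least 1.2-fold, against 2.89% of probes (1.75% were lower and 4.64% past the fold either way), again on a contrast that the rule used. Calb2 was higher by 0.86 (standard error 0.17, 1.81-fold) and Pcdh21 by 0.93 (standard error 0.26, 1.91-fold). Scube1 was 0.20 above CRST (standard error 0.19, 1.15-fold), just outside the selection of the second table. Both CRST+RS5 arrays were above both CRST arrays for Calb2 and Pcdh21, as for 16.9% of probes. The limma counts were 0 adjusted and 1107 (8.46%) unadjusted. Without CRST+RS5 replicate 2, the array with the mucosa genes, Calb2 stood at 0.57, Pcdh21 at 0.44 and Scube1 at 0.42, each past 1.2-fold. Without CRST+RS5 replicate 1 the values were 1.14, 1.43 and -0.02, and without CRST replicate 2 they were 1.01, 1.00 and -0.07. Scube1 thus changed sign with the array left out, and Calb2 and Pcdh21 did not. Between arrays of the same number, CRST+RS5 was above CRST by 0.15 and 0.25 for Scube1, 0.73 and 0.99 for Calb2, and 0.51 and 1.35 for Pcdh21.

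In CRST+RS5 against CON, 2 of 3 members were higher by at least 1.2-fold, against 2.57% of probes (1.31% were lower and 3.88% past the fold either way). Calb2 differed by 0.43 (standard error 0.17, 1.35-fold) and Pcdh21 by 0.33 (standard error 0.26, 1.26-fold), while Scube1 differed by -0.24 (standard error 0.19, 1.18-fold lower). Both CRST+RS5 arrays were above both CON arrays for Calb2 only, a pattern met by 17.7% of probes. The limma counts were 0 adjusted and 1045 (7.99%) unadjusted. These differences rested on 1 array: without CRST+RS5 replicate 2 they were 0.15 for Calb2, -0.17 for Pcdh21 and -0.01 for Scube1, all within 1.2-fold of CON. Without CRST+RS5 replicate 1 they were 0.72, 0.83 and -0.46. The 3 comparisons share arrays, CRST in the first pair and CON or CRST+RS5 in the others, so their values for a gene are not independent of each other.

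**Figure D2:**
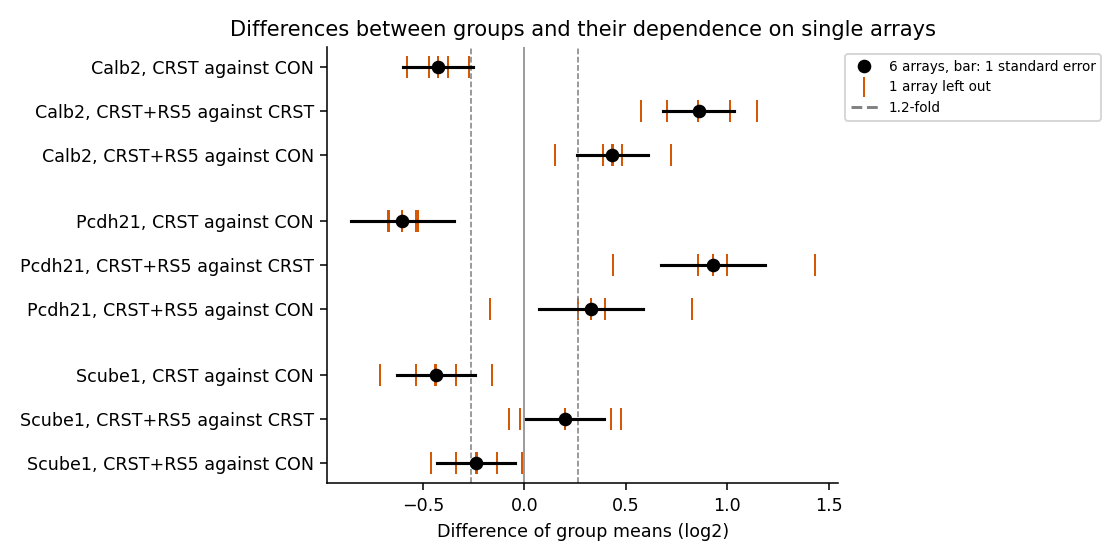
Difference of group means (x axis, log2) of each member in each comparison. Black points and bars are the value over 6 arrays and 1 standard error, orange ticks the value with 1 array left out, dashed lines 1.2-fold. In CRST+RS5 against CON, the ticks of Pcdh21 run from -0.17 to 0.83.

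Calb2 and Pcdh21 went up and down together over the arrays, and Scube1 followed them less. Over 6 arrays, which fall into 3 groups and share the normalization, Pearson's r was 0.95 between Calb2 and Pcdh21 (Spearman's rho 0.77), and it lay between 0.85 and 0.98 with any 1 array left out. It was -0.08 between Calb2 and Scube1. Without CRST+RS5 replicate 2, r rose to 0.41 for Calb2 and Scube1 and to 0.64 for Pcdh21 and Scube1, and without CRST replicate 2 it was -0.54 and -0.56. These are descriptions: Calb2 and Pcdh21 had been selected on both contrasts and Scube1 on the first only, so the r of each pair follows in part from the rule.

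**Figure D3:**
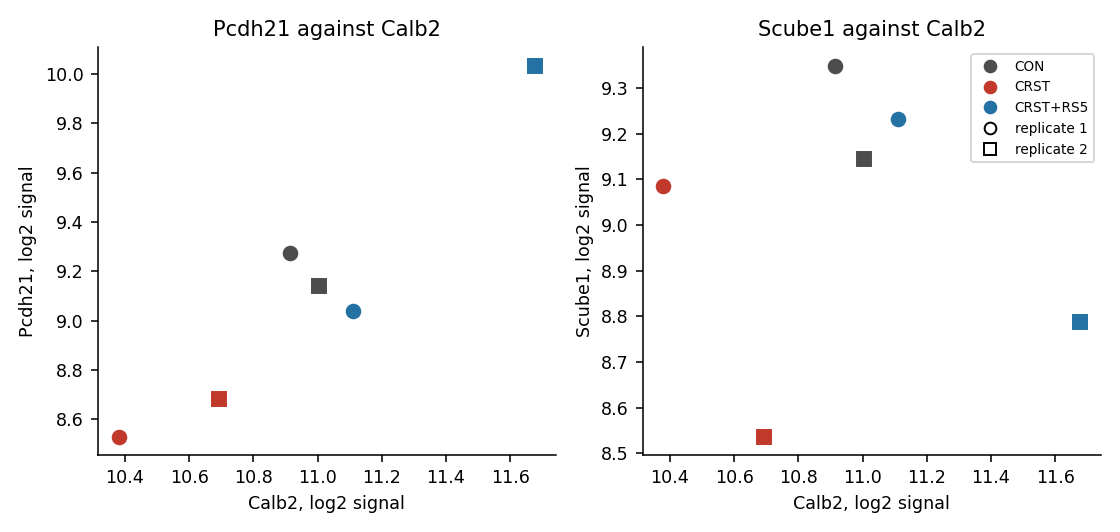
Normalized log2 signal of Pcdh21 (left) and Scube1 (right) against that of Calb2, 1 point per array, coloured by group (circles replicate 1, squares replicate 2). Pcdh21 goes up with Calb2 (r = 0.95), with CRST+RS5 replicate 2 at the upper right, and Scube1 has no such trend (r = -0.08).

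Among 678 detected and named probes, those most like Calb2 by Pearson's r over 6 arrays were Aoc3, an amine oxidase of blood vessel walls, Th, Ctsc, a lysosomal peptidase, Smad6, an inhibitor of BMP signalling, and Myh11, the myosin of smooth muscle, all at 0.98. Aoc3, Ctsc and Smad6, which are on none of the bulb lists, had the same order of the 6 arrays as Calb2. The share of all probes with that order was not counted. The probes most like Pcdh21 were Acsm4 and Pdlim7 at 0.96, and Smad6, Paqr7 and Calb2 at 0.95. Acsm4 is also on the olfactory mucosa list. For Scube1 they were Fstl4 at 0.98, Cd6 at 0.97, and Sorcs3, Nptx2 (a neuronal pentraxin) and Zfp106 at 0.96. Smad6 was thus among the 5 for both Calb2 and Pcdh21, and no gene was among the 5 for both Scube1 and another member. Cd6, for example, had values of 9.43 and 9.25 in CON, 9.06 and 8.61 in CRST, and 9.38 and 8.96 in CRST+RS5, the replicate 2 array being lower in each group as for Scube1. Names exist only for probes that the study selected on these arrays, so the choice was among genes with such differences.

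Projection neurons of the bulb were represented by 4 named genes of 15 symbols listed: Pcdh21, Doc2g, Slc17a6 and Tbr1. Doc2g, which encodes a C2-domain protein of mitral and tufted cells, stood at 7.49 and 7.64 in CON, 7.38 and 7.39 in CRST, and 7.74 and 7.83 in CRST+RS5. Its order of the 6 arrays was that of Calb2, but the signal was near background, detected on the CRST+RS5 arrays only. It thus met the detection filter only through CRST+RS5, and its order among the CON and CRST arrays ranks undetected values. It was at least 1.11-fold higher in CRST+RS5 than in CRST and at least 1.11-fold higher than in CON. Such a bound takes, for an array without detection, the lowest detected signal of that array where the gene's own is below it. Slc17a6, the vesicular glutamate transporter VGLUT2, and Tbr1, a T-box factor, are expressed in cortex as well. Their difference between CRST+RS5 and CRST had the opposite sign to that of Pcdh21, at -0.44 (standard error 0.17) and -0.27 (standard error 0.12). Like Doc2g, both were named through the selection on this contrast, so no p is given for them. Of the 4 genes, Pcdh21 was thus past 1.2-fold above CRST, Slc17a6 and Tbr1 were past it below, and Doc2g had a bound short of it. Among all probes tested, 2.89% were higher and 1.75% lower by that fold. The median of the 4 was 0.06 with the measured value of Doc2g and -0.06 with its bound, against -0.01 over all probes. Tbx21, Eomes and Reln, further listed genes of mitral cells, were not analysed here.

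Local neurons of the bulb were represented by 8 named genes of 20 listed, of which 6 were tested. In CRST+RS5 against CRST 4 of the 6 were higher by 1.2-fold (Calb2, Th, Trh and Zic1), Etv1 was lower, and Zic4 had a bound short of that fold. Of all probes tested, 2.89% were higher and 1.75% lower by as much. The median of the 6 was 0.39 with the measured value of Zic4 and 0.35 with its bound. Over the 8 named genes the measured median was 0.33, and 0.25 without CRST+RS5 replicate 2. The names again come from the selection on this contrast, so no p is given for these genes. Among all probes tested, 0 passed limma's adjusted p there.

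Th encodes tyrosine hydroxylase, the first enzyme of dopamine synthesis, which dopaminergic periglomerular neurons make and which axons from the midbrain carry into the cortex. Its signal was 7.72 and 7.79 in CON, 7.53 and 7.69 in CRST, and 7.83 and 8.20 in CRST+RS5, in the same order as Calb2 and detected on 5 of 6 arrays. The CRST+RS5 arrays exceeded the CRST arrays by 0.40 in the mean (standard error 0.12), or 0.21 without CRST+RS5 replicate 2. Zic4, a zinc-finger transcription factor, also had the order of Calb2, at 7.57 and 7.68 in CON, 7.26 and 7.56 in CRST, and 7.75 and 7.80 in CRST+RS5. It was detected on 1 CON array, on neither CRST array and on both CRST+RS5 arrays. It thus met the detection filter only through CRST+RS5, where it was at least 1.1-fold above CRST.

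Other local-neuron genes had other orders. Trh, the thyrotropin-releasing hormone precursor, stood at 8.46 and 8.69 in CON, 8.12 and 8.60 in CRST, and 8.31 and 9.25 in CRST+RS5. Its difference of 0.42 between CRST+RS5 and CRST became -0.06 without CRST+RS5 replicate 2, so that it rested on that array. Zic1 was 0.29 higher in CRST+RS5 than in CRST (standard error 0.12), with replicate 1 the higher array. Etv1, an ETS factor of bulb and of deep cortical neurons, was lower by 0.31 in CRST+RS5 than in CRST (standard error 0.11). Dlx5 and Calb1 were detected on no array. Which cells gave the signals of Zic1 and Zic4 was not tested. A list of meningeal genes (below) was also higher on both CRST+RS5 arrays, at medians of 0.66 and 0.81 above the CON mean.

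**Figure D4:**
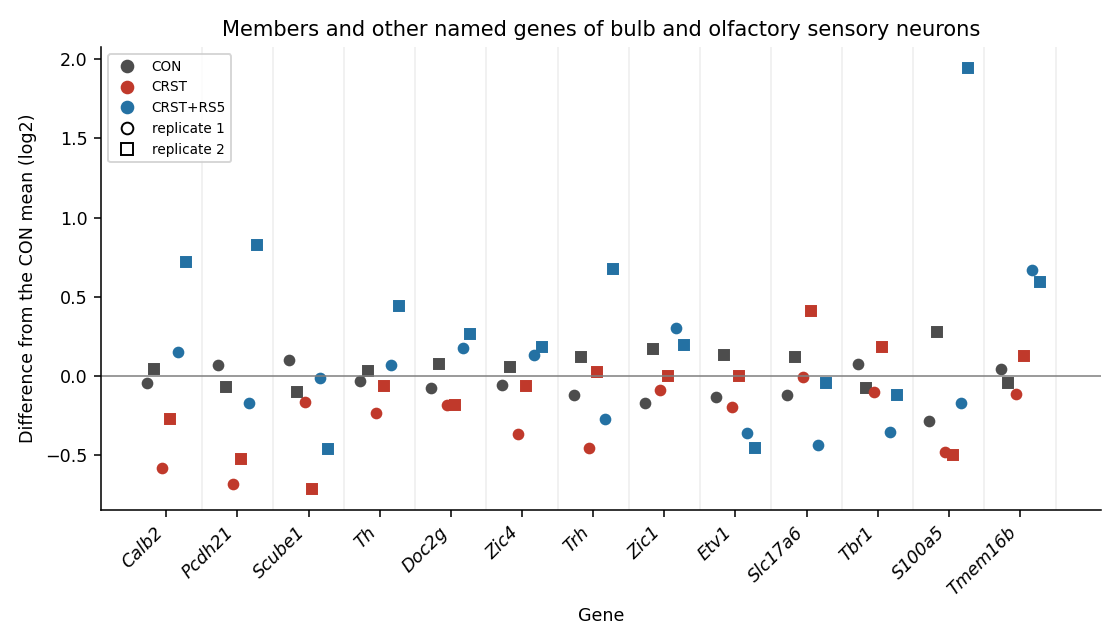
Difference of each array from the CON mean (y axis, log2) for the members and for the other detected named genes of bulb neurons and olfactory sensory neurons. Colours are groups, circles replicate 1, squares replicate 2. Th, Doc2g and Zic4 have the same order of arrays as Calb2, an order that genes outside these lists have too. For Th, Doc2g and Zic4 it includes arrays without detection. S100a5 is far up on CRST+RS5 replicate 2 only.

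Of 11 genes listed for olfactory sensory neurons, whose cell bodies lie in the nose and whose axons reach the bulb, 2 were named. S100a5, an EF-hand protein of these neurons, stood at 7.48 and 8.05 in CON, 7.29 and 7.27 in CRST, and 7.59 and 9.71 in CRST+RS5. It was detected on CON replicate 2 and CRST+RS5 replicate 2 only. The mean of CRST+RS5 lay 0.88 above that of CON through CRST+RS5 replicate 2. Since CRST+RS5 replicate 1 was not above background, a difference without replicate 2 does not rest on a detected signal in CRST+RS5. Tmem16b, now Ano2, the chloride channel of olfactory cilia, behaved otherwise: it was detected on both CRST+RS5 arrays at 8.05 and 7.97 and on no other array, at least 1.29-fold above CRST and at least 1.3-fold above CON. It met the detection filter only through CRST+RS5 and was named through the selection on CRST+RS5 against CRST, so no p is given for it. Its CRST+RS5 difference did not rest on replicate 2.

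**Figure D5:**
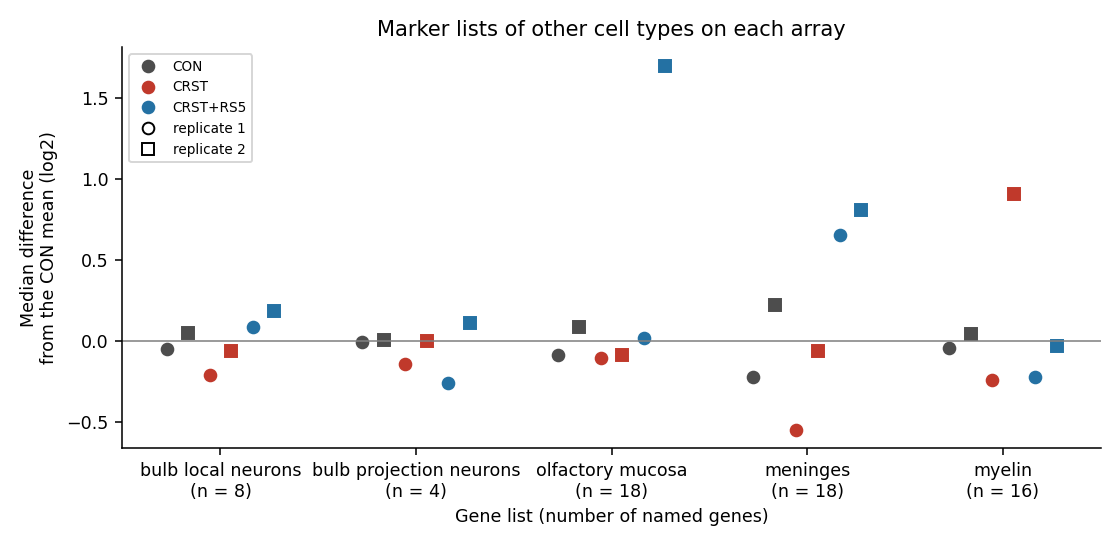
Median difference from the CON mean (y axis, log2) over the named genes of 5 lists on each array. Colours are groups, circles replicate 1, squares replicate 2. The olfactory mucosa list is at 1.70 on CRST+RS5 replicate 2, the meninges list is highest on both CRST+RS5 arrays, and the myelin list is at 0.91 on CRST replicate 2.

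Genes of other cell types differed between the arrays as well, some in the direction of the members and some in the other. The median of the 18 mucosa genes, enzymes and secreted proteins of the nasal lining, lay 1.70 above the CON mean on CRST+RS5 replicate 2 and 0.02 above it on CRST+RS5 replicate 1. Between 4 and 10 of them were detected on each other array. Genes of the meninges, taken as a list, were higher on both CRST+RS5 arrays than on the others. Of 17 tested, 17 were past 1.2-fold above CRST in the CRST+RS5 mean (2.89% of all probes), a contrast that had served to name genes. In the CRST mean 11 were past it below CON (0.864% of all probes), but this depended on single arrays. The median of the 18 named meningeal genes in CRST against CON was -0.35, but -0.07 without CRST replicate 1 and -0.06 without CON replicate 2. Their summed normalized signal was 10374 and 16084 in CRST, 14329 and 21208 in CON, and 30859 and 32357 in CRST+RS5, the order of group means that Calb2 had, though the CRST and CON arrays overlapped. Their median difference between CRST+RS5 and CRST was 1.15, and 1.06 without CRST+RS5 replicate 2. The myelin list had a median of 0.33 in CRST against CON and of -0.24 without CRST replicate 2, and in CRST+RS5 against CRST it stood at -0.46, opposite in sign to Calb2 and Pcdh21, and at 0.10 without CRST replicate 2. Among neurons of the cortex itself, 6 of 6 tested genes of deep layers were past 1.2-fold below CRST in CRST+RS5 (median -0.38). For upper layers 3 of 4 were past it above (median 0.41), and the other, Cdh13 at -0.30, was past it below. Of all probes, 1.75% were lower and 2.89% higher by that fold. The layer genes were named through the selection on this contrast, so that they are past the fold is set by the naming. Of 24 genes listed for cortical interneurons, which make calretinin too, Calb2 and the undetected Calb1 were the 2 with a name, so the other classes of interneurons were not analysed here. The part of these cell types in the results for Calb2, Pcdh21 and Scube1 was not tested. These lists were drawn up with the selected genes known. In bulk tissue, fewer cells of a type and less RNA per cell cannot be told apart.

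Calb2 was also set beside other named genes of EF-hand and calcium-dependent proteins, 11 of them tested. In CRST+RS5 against CRST 10 of 11 were higher by 1.2-fold, with a median of 0.37, against 2.89% of all probes. These 10 are the ones in the second table, which took genes past 1.2-fold on this contrast, so the count is set by the naming. Calb2 at 0.86 was followed by S100a11 at 0.77 and by Tnnc1, the slow and cardiac troponin C, at 0.56, while Hpca, the hippocalcin gene, stood at 0.31 and Necab2 at 0.29. The remaining gene, S100a10, was at -0.25. In CRST against CON 4 were lower (Calb2, Tesc at -0.35, Tnnc1 at -0.27 and S100a11 at -0.26) and S100a10 was higher at 0.29. Of all probes, 0.864% were lower and 0.78% higher by 1.2-fold. Calb2, Tesc, Tnnc1 and S100a10 had been selected on this contrast. Efcab4a and Cracr2b, both on the list, are names of 1 gene read by different probes, at 0.37 and 0.40 in CRST+RS5 against CRST. Ppp3ca, at 0.32, encodes the catalytic subunit of calcineurin and has no EF hand itself.

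Beside Pcdh21, 5 named cadherins were tested. Comparing CRST+RS5 with CRST, 2 of the 5 were past 1.2-fold in the direction of Pcdh21 and 3 were past it in the other. Of all probes tested, 2.89% were higher and 1.75% lower by that fold. All 5 had been selected on this contrast, so that they are past the fold is set by the naming. Pcdh21 stood at 0.93, Cdh1, the epithelial cadherin, at 0.37 and Cdh22 at 0.36, while Pcdh17 was at -0.32, Cdh13 at -0.30 and Pcdhb3 at -0.28. Cdh22, with 8.94 and 9.08 in CON, 8.68 and 8.69 in CRST, and 9.12 and 8.99 in CRST+RS5, was the other cadherin gene past 1.2-fold in CRST against CON, at -0.32.

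Beside Scube1, 7 named genes of proteins with CUB or EGF-like domains were tested. Nell2, at -0.41, was the other one past 1.2-fold below CON in CRST, and Dner, a neuronal ligand of Notch, was above it at 0.37. In CRST+RS5 against CRST, 4 of 8 were higher by 1.2-fold, against 2.89% of all probes: Fbln1 at 0.46, Pcolce at 0.43, Nid1 at 0.35 and Bmp1 at 0.28. They encode proteins of the extracellular matrix or of its assembly, and these 4 had been selected on this contrast. Scube1 at 0.20 and Megf9 at 0.26 were short of that fold, and Nell2 stood at -0.04 and Dner at 0.04. None of the EF-hand, cadherin or CUB and EGF-like domain genes passed limma's adjusted p in any comparison. Counts in these lists follow in part from the selection that gave the genes their names.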

How the data were processed

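RNA of 6 PL pools was measured on mouse Ref-8 v2 bead arrays. The authors extracted signals with GenomeStudio and deposited each probe's average signal intensity, not log transformed, with a detection p-value for each array; whether background was subtracted is not given in the sources used here. They also deposited a quantile-normalized log2 table, used as an alternative (r = 0.999996 with the values here on every array). There were 0 columns of other series.

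The intensities were taken to log2 and quantile normalized with limma 3.58.1 (R 4.3.3), and no background was subtracted. A probe was tested if 1 group or more had it at a detection p under 0.05 on both arrays, which 13083 of 25697 met. Groups, taken from the labels, were compared by difference of means with limma over all 6 arrays and Benjamini-Hochberg adjustment, and the step was tested on simulated data. Precision is limited by how few arrays there are. The arrays were not paired by replicate number, since neither the study, which prepared 2 independent sets, nor the labels say that it marks a set.

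Members and lists were chosen with earlier results of these data known. Named are the members, every named probe of the lists of bulb and olfactory sensory neurons, the 5 named detected probes most like each member by Pearson's r, and detected EF-hand, cadherin and CUB or EGF genes. Genes of other lists that check the tissue or stand as examples were named after their values were seen. This rule also covers 1 gene that is not reported here, and the counts of its list omit it. Where a symbol had several probes, that with the highest mean was taken. Gene names came from the supplementary selection tables, and positions and promoters from RefSeq (GRCm38.p6), where 98 of 99 listed genes with a probe matched. The fold and p columns of those tables were not used. Alternatives covered normalization, background, pseudocount, detection filter, the authors' table, the replicate number as a block and each array left out.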

Additional observations from a re-analysis of the deposited data

How the results depend on the processing

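Under 115 alternatives the differences of Calb2, Pcdh21 and Scube1 moved by less than the spread between replicates. The exceptions were Pcdh21 in CRST against CON with neqc background correction (-0.84) and Pcdh21 in CRST+RS5 against CON, at -0.17 to 0.83 with 1 array left out. With 2 pools per group, leaving 1 array out can hardly move a mean by more than that spread. The detection filters and the replicate block leave a difference of means as it is. For these settings the count was thus largely fixed in advance. Scube1 still fell short of 1.2-fold or changed sign with some arrays left out, as given above. With 1 array left out, Trh in CRST+RS5 against CRST ran from -0.055 to 0.90 and S100a5 in CRST+RS5 against CON from -0.17 to 1.95, the lower value of each without CRST+RS5 replicate 2 (for S100a5 it rests on a CRST+RS5 array not above background). Although 2 independent sets were prepared, no source used here ties a replicate number to a set. Deviations of arrays with the same number correlated at 0.247, 0.259 and 0.0509 between groups. With the replicate block the differences of the members stayed the same and the standard errors were 0.11 for Calb2, 0.22 for Pcdh21 and 0.10 for Scube1, and 34 probes passed limma's adjusted p in CRST+RS5 against CRST. In the order CRST against CON, CRST+RS5 against CRST and CRST+RS5 against CON, probes past 1.2-fold numbered 215, 607 and 508. They numbered 1398, 2040 and 1928 with neqc, and 219 to 879, 614 to 1288 and 497 to 1151 with 1 array left out. A pseudocount of 50 left 130 in CRST against CON. Median scaling took the median of all probes from -0.01 to -0.11 in CRST+RS5 against CRST and gave 1427 there, with 211 higher and 1216 lower against 378 and 229. In CRST against CON it gave 244 higher and 65 lower against 102 and 113, and in CRST+RS5 against CON 219 and 430 against 336 and 172. Under it Calb2 stood at -0.35, 0.70 and 0.34, Pcdh21 at -0.56, 0.83 and 0.28, and Scube1 at -0.40, 0.12 and -0.27. Adjusted-p counts with 1 array left out ran from 0 to 12, 0 to 112 and 0 to 100. With 2 pools per group, single arrays set much of each value. The cause of these changes was not tested.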
